A study of Homo sapiens with 2 samples.

Results

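The 10 genes described here encode enzymes that make serine, glycine, asparagine and proline or carry one-carbon units on folate. They are PHGDH, PSAT1, PSPH, SHMT1, SHMT2, MTHFD2, MTHFD1L, ALDH1L2, PYCR1 and ASNS, and they were chosen by name, so that all 10 were found among the 58735 genes of the deposited expression table. RNA came from SF-539 cells, a human glioblastoma (GBM) cell line grown in DMEM with serum and used at passages 15 to 18. The cells were infected with lentiviruses carrying either a non-targeting control shRNA in the pGIPZ vector (shControl) or an shRNA against FKBP9 (shFKBP9), and infected cells were kept with puromycin, which both groups received. There was 1 library per condition, and the sources used here do not give which shRNA against FKBP9 was sequenced or how many clones each culture held. A difference between the libraries therefore has no replicate check, and an effect of the knockdown cannot be told apart from any other difference between the cultures.

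Serine is made from the glycolytic intermediate 3-phosphoglycerate by PHGDH, PSAT1 and PSPH in turn. SHMT1 in the cytosol and SHMT2 in mitochondria split serine into glycine and a one-carbon unit bound to tetrahydrofolate, which MTHFD2, MTHFD1L and ALDH1L2 carry on in mitochondria towards formate or carbon dioxide and NADPH. ASNS makes asparagine from aspartate and glutamine, and PYCR1 makes proline in mitochondria. Many of these genes are known targets of the transcription factor ATF4, which is translated when eIF2α is phosphorylated, for example by PERK in ER stress or by GCN2 when amino acids run short. In the promoter of ASNS, ATF4 is known to bind a C/EBP-ATF response element.

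The core letters of that element, TGATGNAA, were searched on both strands in the RefSeq promoter windows (250 bases before to 50 after each start, GRCh38.p14), which held at least 1 window for 6 of the 10 genes. Windows of ASNS and MTHFD1L held the letters, and those of PHGDH, PSAT1, SHMT1 and MTHFD2 did not. They were present in 3.62% of all 35116 windows and in at least 1 window of 4.46% of the 27305 genes. The stretches around the matches are shown because the expression of these genes is compared below, with the matching letters in capitals and both matches on the coding strand.
ASNS, minus strand, chr7:97872458-97872487: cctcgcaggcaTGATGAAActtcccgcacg
MTHFD1L, plus strand, chr6:150866346-150866375: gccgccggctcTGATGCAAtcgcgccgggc
The ASNS match began at position -68 from 1 of its 2 listed starts. The MTHFD1L match began at -129, -90 or 25 from 3 of its 4 listed starts. An E-box, CACGTG, was found among the 6 genes in the MTHFD1L windows alone, outside the letters above. Over the whole set it was in 7.26% of windows and 8.77% of genes. The core of the antioxidant response element, TGACNNNGC, was found among the 6 genes in the MTHFD2 window alone, and over the whole set in 13.3% of windows and 16.1% of genes. A match describes the letters and not a bound site.

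The authors deposited FPKM, a level in which the fragments of a gene are divided by its length and by the size of the library, and the whole fragments on each gene could be recovered from it. They came to 18116873 on genes in shControl and 17158514 in shFKBP9. Differences between the libraries are log2 ratios, shFKBP9 over shControl, taken after 0.1 was added to each FPKM. Their 95% intervals come from the fragments by the exact Clopper-Pearson method, with nothing added, and cover only counting error. The targeted gene FKBP9 was at 49.8 FPKM in shControl and at 4.68 in shFKBP9 (log2 ratio -3.38, interval -3.56 to -3.27). Of 8 glial and neural stem markers, 3 reached 1 FPKM, VIM (277 and 295 FPKM), NES (2.36 and 2.17) and PDGFRA (1.46 and 0.976). GFAP (0.196 and 0.139 FPKM), OLIG2 (0.791 and 0.712), SOX2 (0.0879 and 0.162) and S100B were under it, and AQP4 was at 0 in both libraries. The labels call the cells epithelial, and of 5 epithelial markers KRT8 alone reached 1 FPKM (1.28 and 1.09), with EPCAM, CDH1, KRT18 and KRT19 under it. Of 6 mesenchymal markers 5 reached 1 FPKM, and of 4 neuronal markers 2 did. COL1A1 was at 837 and 884 FPKM and THY1, the 1 mesenchymal marker under 1 FPKM, at 0.0280 and 0.00983. Of 6 keratinocyte markers, 0 reached 1 FPKM, and their summed level was 0.211 FPKM in shControl and 1.37 FPKM in shFKBP9. In that order, the fragments were 1 and 24 on KRT14, 0 and 7 on KRT6A, 8 and 17 on KRT5, and 0 in both on KRT1. Of 8 blood and plasma cell markers, 0 reached 1 FPKM, and their sum was 0.531 and 2.36 FPKM. The fragments were 0 and 33 on IGHG1, 0 and 8 on IGKC, 13 and 24 on CD14, 2 and 0 on HBB, 2 and 1 on JCHAIN, and 0 in both on PTPRC and CD3E. The part of such RNA in the results below was not tested.

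Within the 10 genes, PSAT1, ALDH1L2 and MTHFD2 were set apart by a higher level in the shFKBP9 library, at 51.2%, 46.7% and 34.6% above shControl. PYCR1 was 14.6% higher, MTHFD1L differed by -12.5%, and PHGDH, PSPH, SHMT1 and SHMT2 lay between -6.58% and 5.61%. The level of ASNS could not be read from this table, for a reason given with its values. The 3 genes that were higher come from different steps, the second enzyme of serine synthesis and enzymes of the mitochondrial folate route.

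**Figure D1:**
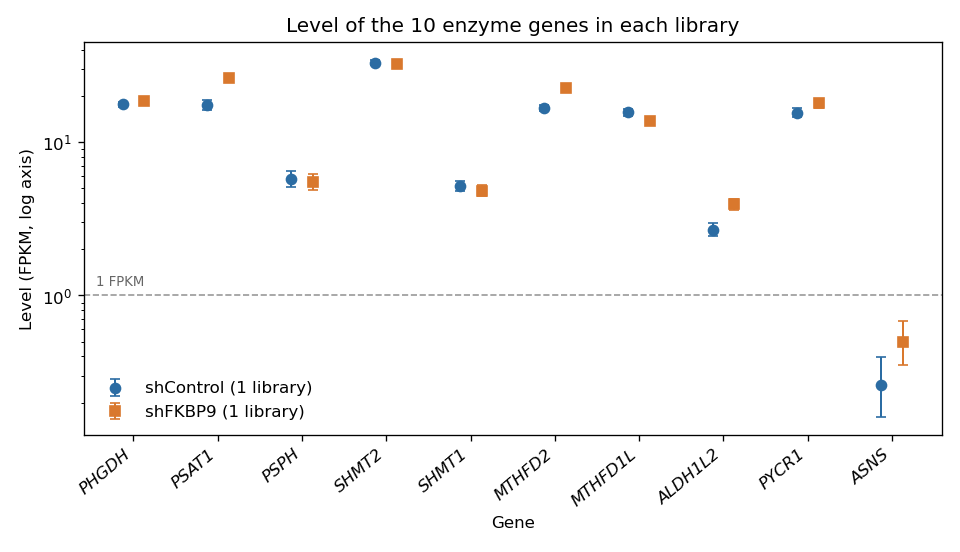
Level of each of the 10 genes in FPKM on a log axis, with 1 point per library (circle, shControl; square, shFKBP9) and bars for the exact Poisson 95% interval of the fragments, which is smaller than the point for many genes. SHMT2 is highest in both libraries at 33.1 and 32.4 FPKM, PSAT1 and MTHFD2 lie clearly apart between the libraries, and ASNS is the only one of the 10 under 1 FPKM.

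Of the 10 genes, 9 reached 1 FPKM in at least 1 library, and ASNS did not. Among these 9, 0 were past 2-fold in either direction. Over all genes, 12741 reached 1 FPKM, of which 2.02% were more than 2-fold higher and 2.19% more than 2-fold lower in shFKBP9. All 10 encode proteins, and of the 10346 protein-coding genes among those tested 0.213% and 0.193% passed 2-fold. Past 1.2-fold, 3 of the 9 genes were higher, where 13.1% of all genes tested and 9.11% of protein-coding genes were, and 0 were lower, where 14.9% and 10.9% were. The 3 genes also had intervals above 0, a combination met by 7.56% of all genes tested. All 9 had at least 500 fragments in both libraries together, and of the genes with that depth 7.62% were past 1.2-fold higher and 8.24% past it lower. The interval alone lay above 0 for PHGDH, PSAT1, MTHFD2, ALDH1L2 and PYCR1 (17.2% of all genes tested and 19.7% of protein-coding genes) and below 0 for MTHFD1L (20.8% and 24.0%). The genes, the lists compared with them and the limit of 1.2-fold were chosen with earlier results of these data known, so these counts are a description alone. The median log2 ratio was 0.08 over these 9 genes and -0.02 over all genes tested. The log2 ratios of the 9 genes ran from -0.19 to 0.59, in both directions.

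**Figure D2:**
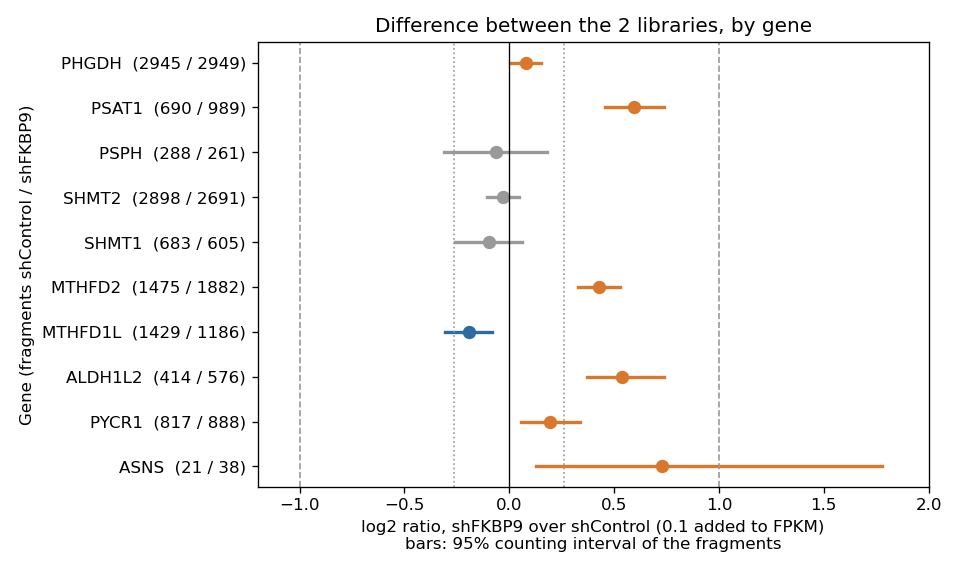
Log2 ratio of shFKBP9 to shControl for each gene (points) with the exact 95% counting interval of the fragments (bars), and the fragments of both libraries beside the gene name; orange marks intervals above 0, blue below 0 and grey those that include 0, and dotted and dashed lines mark 1.2-fold and 2-fold. PSAT1, ALDH1L2 and MTHFD2 have their whole interval above the 1.2-fold line, MTHFD1L lies to the left of 0, and the interval of ASNS is by far the widest.

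The differences in mRNA level were uneven across the 3 steps of serine synthesis. PHGDH (ENSG00000092621; chromosome 1 of hg38, 119648411 to 119744226), the dehydrogenase that commits 3-phosphoglycerate to serine, had 17.6 FPKM in shControl from 2945 fragments and 18.6 FPKM in shFKBP9 from 2949 fragments. Its log2 ratio of 0.08 (interval 0.0046 to 0.15) was barely off 0, and with rescaling to TPM it was 0.06 with an interval that included 0. PSAT1 (ENSG00000135069; chromosome 9, 78297143 to 78330093), the aminotransferase of the second step, had 17.4 FPKM from 690 fragments in shControl and 26.3 FPKM from 989 fragments in shFKBP9. This is a log2 ratio of 0.59 (interval 0.45 to 0.74), the highest of the 9 genes over 1 FPKM, and 4.15% of all genes tested had a higher one. Few-fragment genes scatter widely, and among the 8534 tested genes with at least 500 fragments in both libraries together, 0.516% had a higher ratio than PSAT1. PSPH (ENSG00000146733; chromosome 7, 56011051 to 56051604), the phosphatase that releases serine, had 5.76 FPKM from 288 fragments and 5.50 FPKM from 261. Its log2 ratio of -0.06 (interval -0.31 to 0.18) was not distinguishable from 0 at this depth.

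The contrast between these steps can be measured without any scaling of the libraries, since the library size cancels when 2 genes are compared within each library. The log2 ratio of PSAT1 exceeded that of PHGDH by 0.52 (exact conditional 95% interval 0.36 to 0.68) and that of PSPH by 0.66 (0.38 to 0.95), both without the 0.1. PHGDH exceeded PSPH by 0.14 (-0.11 to 0.40), an interval that includes 0. In level, PSAT1 was at 0.987 of the FPKM of PHGDH in shControl and at 1.41 in shFKBP9, but at 0.198 and 0.284 by the length of the canonical transcripts, so that PSAT1 exceeded PHGDH in shFKBP9 with the table's lengths alone. The pairs compared here and below were picked once their values were known.

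The mRNAs of the enzymes that split serine into glycine and a one-carbon unit showed no difference of this size, for either compartment. SHMT2 (ENSG00000182199; chromosome 12, 57229327 to 57234935), the mitochondrial enzyme, had 33.1 FPKM from 2898 fragments in shControl and 32.4 FPKM from 2691 fragments in shFKBP9, and its interval of -0.11 to 0.05 around a log2 ratio of -0.03 leaves room for little change by counting error. SHMT1 (ENSG00000176974; chromosome 17, 18327860 to 18363563), the cytosolic enzyme, had 5.18 FPKM from 683 fragments and 4.84 FPKM from 605 fragments (log2 ratio -0.10, interval -0.26 to 0.06). SHMT2 made up 86.5% of the FPKM of the pair in shControl and 87.0% in shFKBP9, and their log2 ratios differed by 0.07 (interval -0.11 to 0.25).

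Downstream of SHMT2, the mRNAs of the mitochondrial folate enzymes differed in direction. MTHFD2 (ENSG00000065911; chromosome 2, 74198562 to 74217565), the dehydrogenase and cyclohydrolase that oxidizes methylene-tetrahydrofolate, had 16.7 FPKM from 1475 fragments in shControl and 22.5 FPKM from 1882 fragments in shFKBP9. The log2 ratio was 0.43 (interval 0.33 to 0.53), with 1.66% of genes with at least 500 fragments above it. ALDH1L2 (ENSG00000136010; chromosome 12, 105019784 to 105084577), which oxidizes formyl-tetrahydrofolate to carbon dioxide with production of NADPH, had 2.69 FPKM from 414 fragments and 3.94 FPKM from 576 fragments. Its log2 ratio was 0.54 (interval 0.37 to 0.74), and 0.750% of genes with at least 500 fragments had a higher one. MTHFD1L (ENSG00000120254; chromosome 6, 150865549 to 151101887), the synthetase that releases formate from formyl-tetrahydrofolate, went the other way. It had 15.7 FPKM from 1429 fragments in shControl and 13.8 FPKM from 1186 fragments in shFKBP9, a log2 ratio of -0.19 (interval -0.30 to -0.08) that 15.8% of genes with at least 500 fragments lay below.

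Both genes that were higher thus stood against MTHFD1L, which acts on the same pool of formyl-tetrahydrofolate as ALDH1L2. The log2 ratio of MTHFD2 exceeded that of MTHFD1L by 0.62 (interval 0.47 to 0.77) and that of SHMT2 by 0.46 (0.33 to 0.58). ALDH1L2 exceeded MTHFD1L by 0.75 (0.53 to 0.96) and differed from MTHFD2 by 0.12 (-0.09 to 0.34). In FPKM, MTHFD2 was 1.06 times MTHFD1L in shControl and 1.64 times in shFKBP9, and by canonical length it was at 0.809 of MTHFD1L in shControl and at 1.24 in shFKBP9. Its close relative MTHFD2L, another mitochondrial dehydrogenase of the family, had 1.32 and 1.10 FPKM (log2 ratio -0.24, interval -0.55 to 0.02), so that MTHFD2 made up 92.7% of the pair in shControl and 95.4% in shFKBP9. The cytosolic enzyme MTHFD1, which joins dehydrogenase, cyclohydrolase and synthetase activities in 1 protein, had 24.5 and 21.7 FPKM (log2 ratio -0.17, interval -0.24 to -0.11), and MTHFD2 exceeded it by 0.60 (0.48 to 0.72). The cytosolic counterpart of ALDH1L2, ALDH1L1, had 1 fragment in shControl and 0 in shFKBP9, where a count of 0 allows up to 3.

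PYCR1 (ENSG00000183010; chromosome 17, 81932384 to 81942412), the mitochondrial reductase of the last step to proline, had 15.6 FPKM from 817 fragments in shControl and 17.9 FPKM from 888 fragments in shFKBP9. Of all genes tested, 18.4% lay above its log2 ratio of 0.20 (interval 0.06 to 0.34). Its relative PYCR3 was at 7.85 and 7.42 FPKM, with a log2 ratio of -0.08 (interval -0.28 to 0.11). PYCR1 exceeded PYCR3 by 0.28 (0.04 to 0.52). ALDH18A1, which supplies PYCR1 with its substrate pyrroline-5-carboxylate, had 32.4 and 34.6 FPKM (log2 ratio 0.10, interval 0.01 to 0.18).

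ASNS (ENSG00000070669; chromosome 7, 97852118 to 97872542) had 0.260 FPKM from 21 fragments in shControl and 0.497 FPKM from 38 fragments in shFKBP9. The log2 ratio was 0.73 with 0.1 added and ranged from 0.25 with 1 added to 0.91 with 0.01 added, and the interval of the fragments was 0.13 to 1.78. The 4 ASNS pseudogenes in the table held 0 fragments in both libraries. In GENCODE release 44, however, the canonical transcript of ASNS shares 100% of its coding bases and 99.5% of its exon bases with another gene. These bases are also exons of a longer readthrough gene on the same strand, ENSG00000284707, which the deposited table lists as AC079781.5. That gene held 4 fragments in shControl and 7 in shFKBP9. By default, featureCounts leaves out a fragment that lies on exons of more than 1 gene, and the setting used is not given in the sources used here. Over all its transcripts, ASNS shares 49.3% of its exon bases, and the rest holds none of the coding sequence of the canonical transcript. The part of this counting in the low level of ASNS was not tested, and the level is not read as low expression.

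Protein-coding genes that share nearly all of their coding bases were mostly at low values. Of the 16438 protein-coding genes that share under 10% of their coding bases with another listed gene, 54.1% reached 1 FPKM, of the 2238 genes between 10% and 90%, 56.1% did, and of the 1037 genes that share at least 90%, 16.1% did. The median FPKM of these classes was 1.53, 1.70 and 0 in shControl and 1.48, 1.63 and 0 in shFKBP9. The other 9 genes shared between 0% and 8.29% of their coding bases, the highest being MTHFD2. The canonical transcript of MTHFD2 shares 30.1% of its bases with SLC4A5 on the opposite strand, which held 5 fragments in shControl and 14 in shFKBP9, and without strand the reads of such partners cannot be told apart. SHMT1 shares 7.28% of these bases with SMCR8, also on the opposite strand, which held 1142 and 943 fragments. ALDH1L2 shares 5.24% of its coding bases with C12orf45 on the opposite strand, which held 209 and 177. Over all exon bases, PYCR1 shared the most at 29.7%, with MYADML2 and an antisense RNA that held 3 fragments or fewer. The 7 pseudogenes of MTHFD2 held 0 and 1 fragments, the 4 of PSAT1 and the 1 of PSPH held 0, and the 1 of SHMT1 held 3 and 5. How many fragments of these genes were lost to such copies was not tested.

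**Figure D3:**
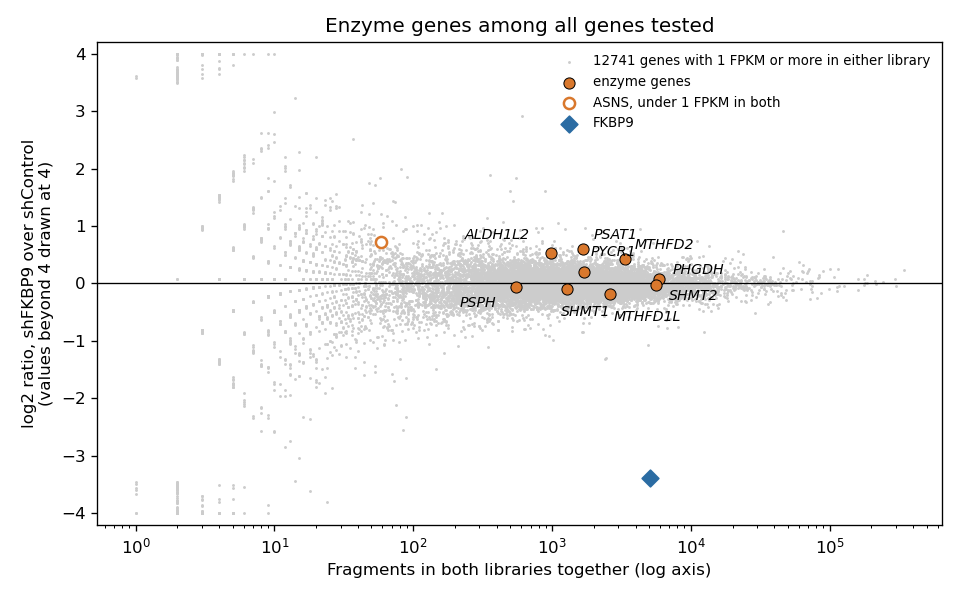
Log2 ratio of shFKBP9 to shControl against the fragments of both libraries together (log axis) for the 12741 genes that reached 1 FPKM (grey), the 9 enzyme genes among them (filled orange), ASNS (open) and FKBP9 (blue). PSAT1, ALDH1L2 and MTHFD2 lie at the upper edge of genes of like depth, the other 6 lie inside the cloud, and ASNS lies among genes with few fragments.

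The order of the levels depended on the length behind them. By FPKM, SHMT2 was highest in both libraries. In shControl it was followed by PHGDH, PSAT1, MTHFD2, MTHFD1L and PYCR1 between 17.6 and 15.6 FPKM, and the exact Poisson interval of each of the last 4 reached that of the gene above it. In shFKBP9 the order was SHMT2, PSAT1, MTHFD2 and PHGDH, each below the interval of the one before, and PYCR1 at 17.9 FPKM was the only one of the next 2 not set apart from its neighbour above. PSPH and SHMT1 overlapped in both libraries, and ALDH1L2 and ASNS came last. The gene length in the table joins the exons of all transcripts, which gave PHGDH 9217 bases although its canonical transcript in GENCODE release 44 has 1866. Divided by canonical length, PHGDH came first with 87.2 FPKM on that length in shControl and 92.1 in shFKBP9, and SHMT2 was second with 74.2 and 72.7. On that scale PSAT1, whose 2188 bases are close to the 2206 of its canonical transcript, moved from position 6 with 17.3 in shControl to position 3 with 26.1 in shFKBP9. The length cancels in a ratio between the libraries except for the 0.1 added to each FPKM.

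In the metabolic lists around these enzymes, ASS1 was the 1 gene over 1 FPKM that was past 1.2-fold higher. Among all genes tested, 13.1% were past 1.2-fold higher and 14.9% lower, and among protein-coding genes 9.11% and 10.9%. These shares stand beside each count of the lists below, which are a description alone. Of 12 other mitochondrial one-carbon genes, 7 reached 1 FPKM, with a median log2 ratio of -0.06 and 0 past 1.2-fold. SFXN3, of the family that carries serine into mitochondria, had 25.2 and 24.9 FPKM, and DLD, a subunit shared by the glycine cleavage system, had 15.9 and 15.6 FPKM. Of 12 genes of cytosolic folate, 7 reached 1 FPKM, with a median of -0.17, and 1 was past 1.2-fold with an interval below 0, where 8.62% of all genes tested were. It was FPGS, which retains folates in cells by adding glutamates, with 23.7 and 19.6 FPKM (log2 ratio -0.27, interval -0.38 to -0.17).

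In the methionine cycle and transsulfuration, 9 of 12 genes reached 1 FPKM, their median was -0.08, and 2 passed the same limits in the lower direction. AHCYL2, a relative of adenosylhomocysteinase, had 2.62 and 1.66 FPKM (log2 ratio -0.63, interval -0.92 to -0.40), and AHCY, which clears adenosylhomocysteine, had 70.4 and 58.4 FPKM (-0.27, -0.33 to -0.21). Purine synthesis, which draws on glycine and formyl-folate, had 5 of 6 genes over 1 FPKM and a median of -0.07. PFAS alone passed, from 11.8 to 8.74 FPKM (-0.43, -0.55 to -0.31). The genes that use serine for sphingolipids, phosphatidylserine and other products had 7 of 8 over 1 FPKM, a median of -0.14 and 0 past 1.2-fold. PTDSS1 was at 21.0 and 19.1 FPKM and SPTLC1 at 11.9 and 13.9 FPKM.

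Among the other genes of proline and ornithine, 5 of 7 reached 1 FPKM, with a median of 0.05 and 0 past 1.2-fold. OAT, which links ornithine to proline, had 26.5 and 27.4 FPKM. Of the 14 genes around glutamine, aspartate and asparagine, 10 reached 1 FPKM with a median of 0.01. ASS1, the argininosuccinate synthase that uses aspartate, was the 1 gene of them past 1.2-fold and higher, where 13.1% of all genes tested were. It was at 9.58 and 14.5 FPKM (0.59 on the log2 scale, interval 0.43 to 0.76).

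Like the other lists, the regulators were chosen with earlier results known. All 14 reached 1 FPKM, their median log2 ratio was 0.31, and 8 were past 1.2-fold higher with an interval above 0, against 7.56% of all genes tested. They were ATF4 (92.7 and 129.7 FPKM, log2 ratio 0.48), DDIT3, which encodes CHOP (14.2 and 19.7 FPKM, 0.47), ATF5 (11.1 and 15.3 FPKM, 0.45), CEBPG, a partner of ATF4 (7.63 and 10.2 FPKM, 0.41), PPP1R15A, which encodes the eIF2α phosphatase subunit GADD34 (11.4 and 15.2 FPKM, 0.41), ATF3 (2.87 and 3.75 FPKM, 0.37), TRIB3, an inhibitor of ATF4 (2.86 and 3.61 FPKM, 0.33), and NFE2L2, which encodes NRF2 (10.7 and 13.04 FPKM, 0.29). CEBPB, which encodes another C/EBP factor, had 113 and 101 FPKM (log2 ratio -0.16, interval -0.23 to -0.09). MYC, a known activator of SHMT2, had 17.8 and 18.1 FPKM (0.02, -0.11 to 0.15).

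The 4 kinases of eIF2α had log2 ratios within 0.16 of 0. EIF2AK2, which encodes PKR, had 5.61 and 6.26 FPKM (log2 ratio 0.16, interval 0.04 to 0.28). EIF2AK3, which encodes PERK, had 3.53 and 3.74 FPKM (0.08, -0.13 to 0.30). EIF2AK4, which encodes GCN2, was at 7.67 and 7.65 FPKM, and EIF2AK1, which encodes HRI, at 20.2 and 19.2 FPKM (-0.07, -0.17 to 0.02). These are mRNA levels, and no measurement of kinase activity, protein or metabolites was analysed here.

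The fragments of 17105 genes with at least 10 of them were also put to a two-sided exact binomial test, which compares these 2 libraries and not the conditions. After Benjamini-Hochberg adjustment it called PSAT1 (adjusted p = 2.74e-15), MTHFD2 (7.18e-16), ALDH1L2 (5.45e-08) and PYCR1 (0.0266) as higher, where 9.93% of these 17105 genes were called higher, and MTHFD1L (0.00523) as lower, where 11.8% were. It did not call PHGDH (adjusted p = 0.127) or ASNS (0.0756). A negative binomial exact test with a dispersion set by assumption, in place of the spread between cultures that was not measured, called 0 of the 10 genes. At a dispersion of 0.04 it called 0.0117% of the 17105 genes higher and 0.0175% lower, and at 0.01 it called 0.193% higher and 0.146% lower. At a dispersion of 0.01 the adjusted p of this exact test was 0.44 for PSAT1, 0.652 for ALDH1L2 and 0.93 for MTHFD2. The differences of PSAT1, MTHFD2 and ALDH1L2 thus exceeded counting error and were not called under either assumed spread.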

How the data were processed

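RNA of SF-539 cells was sequenced, 1 library for shControl and 1 for shFKBP9. The authors dropped poor reads and those with adapters, aligned read pairs to hg38 with HISAT2 2.0.5, counted fragments per gene with featureCounts 1.5.0-p3 and used edgeR (submitters' processing notes and methods). The authors deposited FPKM for 58735 genes, with gene lengths and positions. The annotation release is not given in the sources used here, and the library kit is not stated to keep strand.

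Fragments were recovered by dividing FPKM times gene length by the smallest such value of each library, and 100% of the values were whole within 0.001 times the root of the count. A fragment on a gene of 1 kilobase was worth 0.0552 FPKM in shControl and 0.0582 in shFKBP9. The genes called tested reached 1 FPKM in 1 library or both, and their ratios were taken on the log2(FPKM + 0.1) scale. Clopper-Pearson, Poisson and conditional odds-ratio intervals at 95% cover counting error only. No test between conditions was possible. Intervals, counts and tests were checked on simulated data. Shared exon bases and canonical transcripts were taken from GENCODE release 44 (hg38), over the genes of the deposited table. Coding bases are those of the canonical transcript alone. Values were computed with scipy 1.17.1, pandas 2.3.3 and numpy 2.4.6 in Python 3.11.15 and drawn with matplotlib 3.10.9.

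The 10 genes, the pathway lists and the 1.2-fold limit were chosen with earlier results of these data known. The genes named are the 10, FKBP9, all regulators, markers, pseudogenes and overlapping genes, and in each pathway list those past 1.2-fold with an interval off 0 (at most 4 in each direction) or else the 2 with the highest FPKM. MTHFD1, MTHFD2L, ALDH1L1 and PYCR3, the pairs compared, and the genes with shared exons in the closing section were named after their values were seen. With 2 libraries no likeness of patterns between genes could be measured. The alternatives were other additions to FPKM, 2 scalings, other minimums, protein-coding genes alone, pseudogenes summed and tests of the fragments.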

Additional observations from a re-analysis of the deposited data

How the results depend on the processing

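No paired analysis was possible because each condition has 1 library, and for the same reason no library could be left out. The log2 ratio of FKBP9 was -3.16 with 1 added to FPKM, outside its counting interval. The 10 genes kept their signs with 1 or 0.01 added, with median scaling, with TPM and with pseudogenes summed, and the counts past 2-fold (0 and 0) and past 1.2-fold (3 higher, or 4 without a minimum, which lets ASNS in, and 0 lower) stayed within 1.5 times. Over all 10 genes, 6 intervals lay above 0 (5 with TPM, without PHGDH) and 1 below, while the negative binomial test at either dispersion, 0.04 or 0.01, called 0 higher and 0 lower. Alternatives chosen after seeing the data were canonical lengths, under which SHMT2 was 83.3% of its pair in shControl and 83.9% in shFKBP9 and MTHFD2 77.1% and 84.5%, and the median without ASNS, 0.08 in place of 0.14. Of the list medians, those of the proline list (-0.02 with 1 FPKM in both libraries) and the glutamine list (-0.01 with TPM) changed sign near 0, and the others kept their sign. Without a minimum, the medians were -0.05 for serine use, -0.03 for the methionine cycle, -0.10 for cytosolic folate, -0.10 for mitochondrial partners, -0.05 for purine synthesis and 0.00 for the glutamine list, and with 1 FPKM in both libraries that of cytosolic folate was -0.10. The background past 2-fold, 258 higher and 279 lower, was 138 and 153 with 1 added, 2022 and 1993 without a minimum, 22 and 20 among protein-coding genes, and 40 and 41 where both libraries had to reach 1 FPKM. Past 1.2-fold, 1668 higher and 1894 lower became 6407 and 7012 without a minimum and 943 and 1123 among protein-coding genes. Median scaling moved all log2 ratios by 0.02.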

Other observations

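Genes of the pathway lists share coding bases with other listed genes as well. SLC25A32, which carries folate into mitochondria, shares 100% of its coding bases with another listed gene and had 17 fragments in shControl and 13 in shFKBP9. AMT of the glycine cleavage system also shares 100% and had 7 and 3 fragments. ADSL of purine synthesis shares 89.9% and was at 0.691 and 0.680 FPKM, and GLS2 shares 87.7% with 1 fragment in each library. GCSH shares 81.7% of its coding bases and was at 1.44 and 1.30 FPKM. ADSL, GLS2 and GCSH belong to the class between 10% and 90%, of which 56.1% reached 1 FPKM, against 54.1% of the class under 10%. A loss of fragments in these genes was not tested. The levels of these genes in the table cannot be read as low expression from these values alone, and the counting was not repeated here.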
